A study of Mus musculus with 12 samples.

Results

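The genes described here are 8 genes of epithelial mucosal defence: Nos2, Duox2, Duoxa2, Pigr, Muc13, Lypd8, Lcn2 and Ccl25. They were taken by symbol from 32587 gene rows, and all 8 symbols were present. The 12 RNA libraries came from wild-type mouse organoids of the small intestine, labelled as duodenal, which are epithelial cultures grown from intestinal stem cells. There were 3 libraries each for the solvent dimethyl sulfoxide (DMSO) and for the bile acids cholic acid (CA), chenodeoxycholic acid (CDCA) and deoxycholic acid (DCA). The labels put the acids at 50 mmol/L, where the unit is doubtful because bile acids are rarely used so concentrated, and they disagree on the exposure (2 days or 96 hours). All groups shared a commercial growth medium with penicillin and streptomycin, and the labels mention no immune cells or bacteria. Whether replicates are separate cultures is not stated, so a p-value covers only the spread between libraries, possibly a technical one.

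The intestinal epithelium keeps microbes at a distance by several routes. Pigr encodes the polymeric immunoglobulin receptor, which carries IgA from the tissue side through the epithelial cell into the lumen. Ccl25 encodes a chemokine of the small-intestinal epithelium that attracts gut-homing lymphocytes. Muc13 is a mucin anchored in the apical membrane, and Lypd8 is a GPI-anchored protein that is shed into the lumen and binds flagellated bacteria. Nos2 makes nitric oxide, and Duox2, matured by its partner Duoxa2, makes hydrogen peroxide at the cell surface. Lcn2, lipocalin 2, withholds iron by binding bacterial siderophores. CA and CDCA are primary bile acids made in the liver, while DCA is a secondary acid that gut bacteria make from CA. CDCA and DCA each lack a hydroxyl group that CA carries.

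Pigr and Ccl25 had the largest DCA differences on the log2(TPM + 1) scale (1.12 and 1.24), where as a ratio of mean TPM Nos2 was higher (2.42, against 2.17 and 2.33), and had the most similar profiles of any pair of members on that scale, so the sequences before their starts are shown. They were taken from a RefSeq promoter table of build GRCm38.p6, which is not the build named for the expression files, and held entries for 7 of the 8 members (all but Nos2). Each is the 250 bases before a listed start, on the strand of the gene. The Pigr sequence lies at chr1:130826434-130826683 on the plus strand, and the table lists 2 starts for Ccl25, at chr8:4324960-4325209 and chr8:4349338-4349587, both on the plus strand. Capitals mark matches to the motifs searched.
Pigr: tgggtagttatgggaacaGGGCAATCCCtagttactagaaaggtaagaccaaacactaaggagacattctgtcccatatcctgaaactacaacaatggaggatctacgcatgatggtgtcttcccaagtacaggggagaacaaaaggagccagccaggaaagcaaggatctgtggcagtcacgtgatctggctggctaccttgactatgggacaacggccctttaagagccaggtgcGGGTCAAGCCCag
Ccl25 start 1: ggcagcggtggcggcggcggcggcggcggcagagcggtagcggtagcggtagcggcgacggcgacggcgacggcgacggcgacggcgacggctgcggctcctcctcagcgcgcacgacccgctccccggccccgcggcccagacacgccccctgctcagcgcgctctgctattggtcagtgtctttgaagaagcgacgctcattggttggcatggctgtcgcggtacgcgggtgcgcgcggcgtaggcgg
Ccl25 start 2: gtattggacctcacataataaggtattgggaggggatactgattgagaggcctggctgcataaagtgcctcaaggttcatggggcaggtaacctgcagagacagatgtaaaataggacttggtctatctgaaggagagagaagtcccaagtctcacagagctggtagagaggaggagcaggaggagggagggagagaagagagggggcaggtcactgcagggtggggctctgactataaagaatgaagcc
Motifs were searched on both strands, overlaps counted, over the 250 bases before and 50 bases after each start. An NF-kB-like motif (3 G, any 5 bases, 2 C) had 4 matches at 2 places for Pigr, each read on both strands, and 0 at either Ccl25 start. It also had 4 matches at the first listed start of Muc13, 1 at each listed start of Lypd8 and 1 for Lcn2. Duox2 and Duoxa2 had 0, and 50.8% of 32851 promoters held the motif. TTCNNNGAA, resembling a STAT site, matched Pigr at 1 place within the 50 bases not shown. It also matched the first listed start of Muc13 at 1 place and was held by 8.3% of promoters. The inverted repeat bound by the bile acid receptor FXR (0.0396% of promoters) matched no member promoter, and CAAAGTCCA, resembling an HNF4 site (0.475%), matched 1, the second of 2 listed starts of Muc13. The listed starts of Duox2 and Duoxa2 face away from each other on opposite strands, 673 bases apart.

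Values are normalised transcript abundances (TPM), in which a transcript's share of the library is corrected for its length and scaled to a fixed total. Library totals over the rows ran from 889156 to 936841 TPM. TPM keeps no read depth, so the counting error of a single value is unknown. The pan-epithelial markers summed to 3772 to 4498 TPM in the 12 libraries, and all 7 duodenal region markers were detected, at 193 to 325 TPM in sum, including Gata4 at group means of 85.0 to 103 TPM. The 9 ileal and colonic region markers summed to 81.3 to 382 TPM. Most of this was Ang4, also on the list of Paneth cell markers, at group means of 82.2 to 249.8 TPM. Of the 26 immune cell markers, which cover neutrophils and macrophages that can also express Lcn2 and Nos2, 9 were listed at 0 in all libraries (Cd3g, Cd8b1, S100a8, Mpo, Elane, Camp, Ngp, Tyrobp and Nkg7), and the list summed to 3.61 to 6.81 TPM in DMSO, 5.02 to 6.39 in CA, 4.04 to 4.15 in CDCA and 4.66 to 6.15 in DCA. Libraries were placed between the DMSO mean (0) and the DCA mean (1) over 11952 genes, each left out of its own mean. CDCA replicate 3 lay at 0.522, against 0.101 and 0.171 for CDCA replicates 1 and 2, and DMSO replicate 1 lay at 0.331, against 0.0151 and -0.0281 for the other DMSO libraries. CDCA replicate 3 was the highest of its group for 7 of the 8 members and DMSO replicate 1 likewise for 7, so results that rest on these libraries are given with and without them, the latter from a reduced fit that leaves out both (11895 genes tested). The pair was chosen with earlier results known, and leaving out the library where a member is highest lowers its group mean and narrows its range by construction. The adjusted p-values of the reduced fit are therefore descriptions and support no call.

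The 8 genes fell into 2 ranges of abundance. Averaged over the 12 libraries, Pigr was at 748 TPM (rank 174 of 32587), Ccl25 at 419, Muc13 at 382 and Lypd8 at 379. The enzymes lay far lower, with Nos2 at 2.98, Duox2 at 2.24 and Duoxa2 at 1.10 TPM, and Lcn2, at most 0.283 TPM in any library, was below the filter of 1 TPM in at least 3 libraries that left 11952 genes for testing. Of the 7 members tested, 5 differed among the 4 groups in limma's moderated F test at an adjusted p under 0.05 (28.5% of all tested genes did): Pigr, Ccl25, Nos2, Muc13 and Duox2. Muc13 and Duox2 stood near the threshold (limma F test adjusted p = 0.0343 and 0.0469), and the count was 3 in 8 of the 12 fits that left out 1 library (CA replicate 1 or 3, CDCA replicate 1 or 2, any DCA replicate, DMSO replicate 2) and 6 without CDCA replicate 3.

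**Figure D1:**
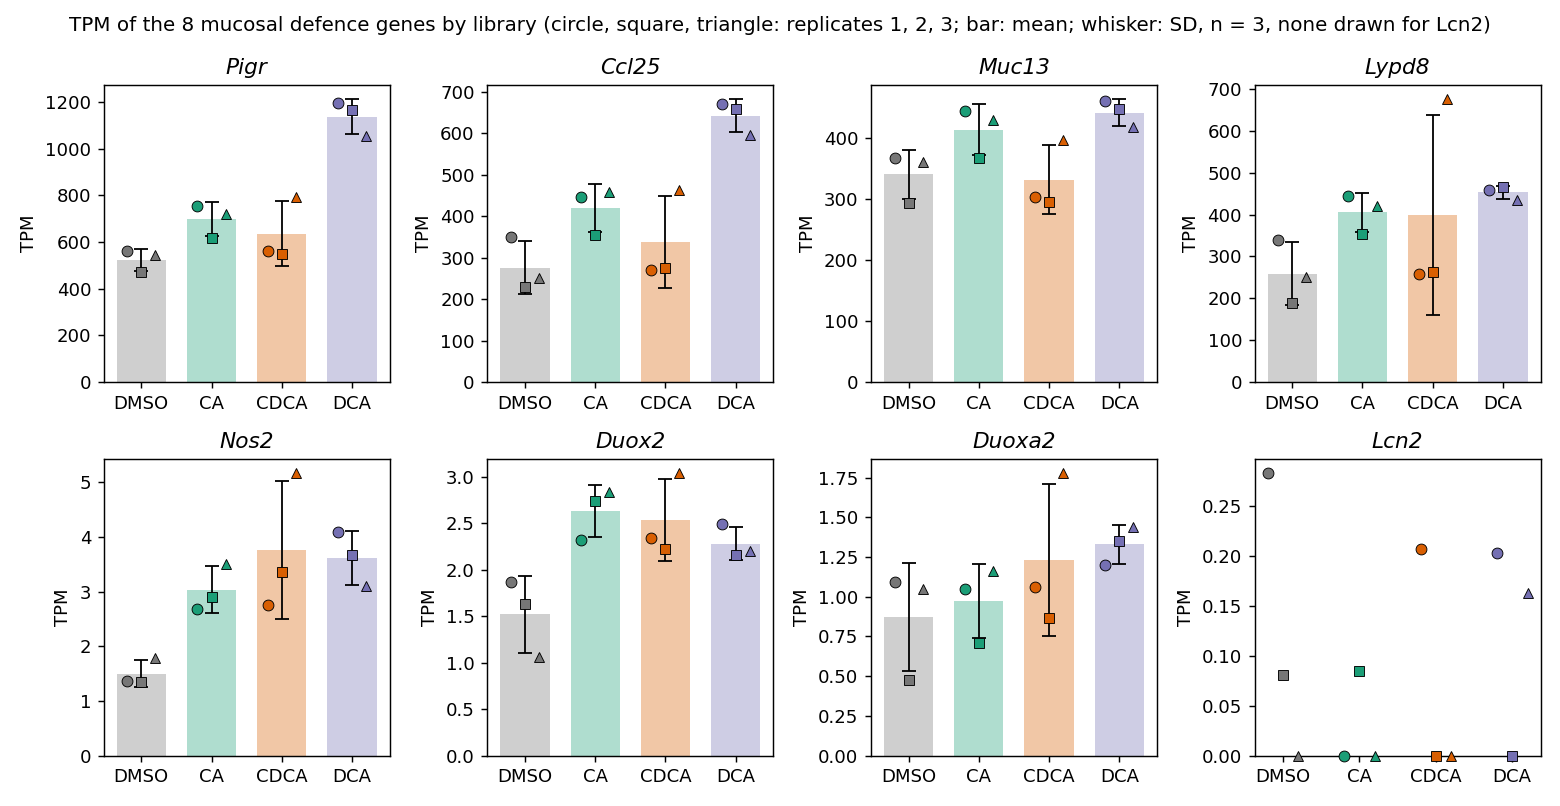
TPM (vertical axes, linear, from 0) of each gene in DMSO, CA, CDCA and DCA, with a point for each library, bars for the means and whiskers for the SD (n = 3), and points only for Lcn2. The 3 DCA libraries stand above all 3 DMSO libraries for every gene except Lcn2, and CDCA replicate 3 (triangle) stands above the other CDCA libraries for every gene except Lcn2.

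Against DMSO, 4 of the 7 tested members rose under DCA (Pigr, Ccl25, Nos2 and Muc13) and 0 fell, where 18.8% of all tested genes rose and 19.2% fell (38.0% in either direction). The members' median difference on the log2(TPM + 1) scale, which understates changes of low genes, was 0.85, against -0.021 for all tested genes. The DCA and DMSO libraries did not overlap for 7 of 7 members, and did not for 50.3% of all tested genes. Under CDCA 1 of 7 rose (Nos2) and 0 fell, where 0.510% of all tested genes rose and 0.0837% fell (0.594% in either direction). The CDCA median was 0.26 against 0.018 for all tested genes, and the CDCA and DMSO libraries did not overlap for 2 of 7 members, against 10.0% of all tested genes. Under CA 0 of 7 passed in limma, where 0.569% of all tested genes rose and 0.00837% fell (0.577% in either direction). An unadjusted limma p under 0.05 was reached by 5 of the 7 under CA, and by 1763 of the 11952 tested genes. The CA median was 0.54 against 0.028 for all tested genes, and the CA and DMSO libraries did not overlap for 6 of 7 members, against 17.0% of all tested genes. In the reduced fit 5 members were higher under CA at a limma adjusted p under 0.05 (Pigr, Ccl25, Lypd8, Nos2 and Duox2, at 0.46, 0.80, 0.90, 0.65 and 0.64), where 5.18% of all tested genes were higher and 2.93% lower in that fit (8.10% in either direction). There, 0 members were past the threshold under CDCA, with 0.563% of all tested genes higher and 0.0925% lower (0.656% in either direction), and 6 under DCA, with 18.3% higher and 25.1% lower (43.4% in either direction). The counts from the reduced fit support no call, because DMSO replicate 1, left out there, was the highest DMSO library for 7 of the 8 members. The 3 comparisons share the DMSO libraries.

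**Figure D2:**
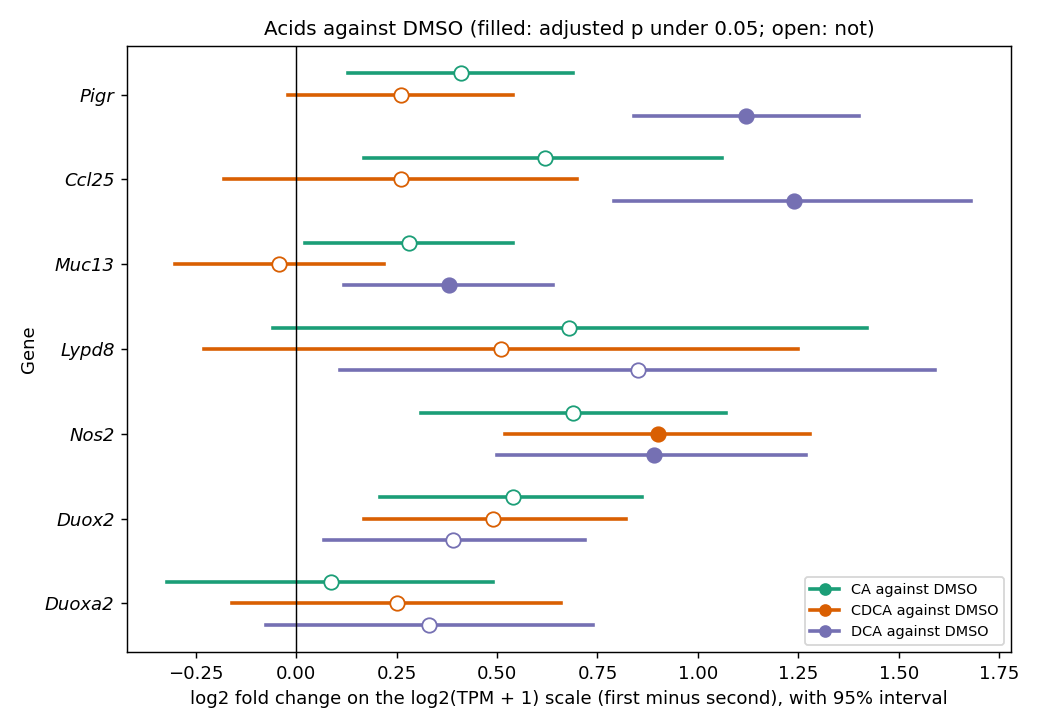
Log2 fold change on the log2(TPM + 1) scale (horizontal axis) with its 95% interval for 7 genes, CA, CDCA and DCA each against DMSO (n = 3 per group). Filled points passed at a limma adjusted p under 0.05. Pigr and Ccl25 lie highest with DCA, at 1.12 and 1.24, and the 3 acids lie closest together for Nos2 and Duox2.

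IgA transport was represented by Pigr. Pigr was at 559, 469 and 542 TPM in DMSO replicates 1 to 3, at 755, 616 and 721 in CA, at 561, 548 and 794 in CDCA and at 1195, 1165 and 1052 in DCA. Every DCA library was above every other library, the CA libraries were above the DMSO libraries, and the CDCA libraries overlapped both. The means were 523 ± 47.9 TPM in DMSO, 697 ± 72.7 in CA, 635 ± 139 in CDCA and 1137 ± 75.3 in DCA (SD, n = 3), a 2.17-fold higher mean with DCA than with DMSO. The DCA difference from DMSO was 1.12 (95% interval 0.84 to 1.40, limma adjusted p = 8.9e-05). It passed under all 14 alternatives tried, 6 of which left out 1 library each, at 1.03 to 1.18. The CA and CDCA differences from DMSO, 0.41 and 0.26, did not pass (limma adjusted p = 0.171 and 0.572), and the CDCA difference was 0.088 without CDCA replicate 3. In order of mean level (DMSO, CDCA, CA, DCA), the adjacent groups DMSO and CDCA, and CDCA and CA, did not differ past the threshold, and DCA exceeded CA (0.71, interval 0.43 to 0.99, limma adjusted p = 0.00589). In bulk organoids a change in the number of cells of a type and a change in RNA per cell cannot be told apart, here and for each gene below.

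Of the 9 tested partner genes of IgA transport besides Pigr, 4 rose and 2 fell under DCA, with a median log2 difference from DMSO of 0.32 where the median of all tested genes was -0.021. Beside this count and the count of each list below, 18.8% of all tested genes rose and 19.2% fell under DCA. Myo5b, a motor of apical recycling endosomes, rose from 55.0 to 102 TPM in the group means (log2 difference 0.88, limma adjusted p = 0.000137). Rab11a, a small GTPase of the same endosomes, rose by 0.32 (limma adjusted p = 0.0398), and its epithelial relative Rab25 was at 0.15 (limma adjusted p = 0.142). Jchain, the plasma cell gene that joins IgA units, was at most 0.248 TPM in any library and was not tested.

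Ccl25 followed the same order. It was at 349, 230.2 and 249.9 TPM in DMSO replicates 1 to 3, at 447, 354 and 459 in CA, at 269.8, 276 and 464 in CDCA and at 672, 659 and 597 in DCA. All DCA libraries were above all others, CA was above DMSO throughout, and CDCA replicates 1 and 2 lay within the DMSO range while CDCA replicate 3 lay above the CA range. The means were 276 ± 63.9 TPM in DMSO, 420.2 ± 57.2 in CA, 337 ± 111 in CDCA and 643 ± 40.1 in DCA (SD, n = 3). DCA exceeded DMSO by 1.24 on the log2 scale (interval 0.79 to 1.68, limma adjusted p = 0.000721), a 2.33-fold higher mean, and this passed under all 14 alternatives at 1.12 to 1.42. The difference was 0.62 for CA (interval 0.17 to 1.06, limma adjusted p = 0.193) and 0.26 for CDCA (interval -0.18 to 0.70, limma adjusted p = 0.792). The CDCA difference was 0.0061 without CDCA replicate 3, 0.44 without DMSO replicate 1 and 0.19 without both. In the reduced fit the CA difference was 0.80 (limma adjusted p = 0.000774, which supports no call).

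Other chemokines of the epithelium went in both directions under DCA. Of 6 tested besides Ccl25, 2 rose and 3 fell (median -0.20). Ccl20, which attracts cells that carry its receptor to lymphoid follicles, rose from 2.77 to 5.52 TPM (log2 difference 0.79, limma adjusted p = 0.00453), and Cx3cl1, a membrane-bound chemokine, rose by 0.58 (limma adjusted p = 0.0151). Cxcl16, another membrane-bound chemokine, fell by 0.59 on the log2 scale (limma adjusted p = 0.00377). Ccl28, a mucosal chemokine for IgA-producing cells, fell by 0.23 (limma adjusted p = 0.0421). Within the chemokine list Ccl25 had a mean of 643 TPM in DCA where Cx3cl1 had 28.1 and Ccl28 had 21.4.

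Muc13 differed less between groups. It was at 367, 294 and 361 TPM in DMSO replicates 1 to 3, at 445, 367 and 429.8 in CA, at 303, 296 and 397 in CDCA and at 461, 448 and 418 in DCA. The DCA libraries were all above the DMSO and CDCA libraries and overlapped the CA libraries. Muc13 rose under DCA by 0.38 (interval 0.12 to 0.64, limma adjusted p = 0.0235), from 341 ± 40.3 to 442 ± 22.2 TPM (SD, n = 3). The call did not hold when DCA replicate 1, DCA replicate 2 or DMSO replicate 2 was removed (limma adjusted p = 0.078, 0.0659 and 0.104), nor without the filter on low values (0.051), nor after removal of mitochondrial and rRNA rows (0.055). The CA difference was 0.28 (limma adjusted p = 0.301) and the CDCA difference -0.043 (interval -0.30 to 0.22), or -0.18 without CDCA replicate 3.

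Among 10 other tested genes of membrane mucins and the glycocalyx, 1 rose and 3 fell under DCA (median -0.26). Muc3, a large membrane mucin of the brush border, rose from 28.0 to 138 TPM (log2 difference 2.31, limma adjusted p = 0.000279). Muc3a, a row of similar name, was at 18.1 TPM in DMSO and 11.8 in DCA (-0.51, limma adjusted p = 0.0589), and how reads were divided between close copies is not given in the sources used here. Muc4 fell by 0.33 on the log2 scale (limma adjusted p = 0.0233). Cd164 and Dag1, widely expressed glycoproteins, were at -0.015 and -0.15 (limma adjusted p = 0.908 and 0.306), and Muc1, at most 0.745 TPM in any library, was not tested. The count of 5 that passed in this list, Muc13 included, was 3 without DCA replicate 1 or 2.

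Lypd8 had the widest spread between replicates of the 4 abundant members in DMSO and CDCA. It was at 338, 188 and 249.6 TPM in DMSO replicates 1 to 3, at 444, 354 and 419.7 in CA, at 257, 263 and 676 in CDCA and at 458, 466 and 435 in DCA. CDCA replicate 3 held the highest value of all 12 libraries, and the other CDCA libraries lay within the DMSO range, while CA and DCA were above DMSO throughout. The SD in percent of the mean was 60.1% in CDCA, 29.1% in DMSO, 11.5% in CA and 3.51% in DCA. The differences from DMSO were 0.85 for DCA (interval 0.11 to 1.59, limma adjusted p = 0.0695), 0.68 for CA (limma adjusted p = 0.379) and 0.51 for CDCA (limma adjusted p = 0.737). The CDCA difference was 0.049 without CDCA replicate 3, 0.72 without DMSO replicate 1 and 0.26 without both. The DCA difference passed with median-ratio scaling (0.88, limma adjusted p = 0.0494) and in a fit of only the 6 libraries compared (0.85, 0.00943). With DMSO replicate 1 left out it was 1.06 (limma adjusted p = 0.0482). As that library was the highest of DMSO for Lypd8, its removal raises the difference by construction and supports no call. Apart from these and the reduced fit, the DCA difference was past the threshold under no alternative. In the reduced fit the CA and DCA differences from DMSO were 0.90 and 1.06 (limma adjusted p = 0.000774 and 1.69e-05, which support no call).

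The related LY6/PLAUR genes, small GPI-anchored or secreted proteins, did not share one direction under DCA. Of 10 tested besides Lypd8, 1 rose and 3 fell (median -0.16). Lypd8l, a close relative of Lypd8, rose from 73.4 to 114 TPM (log2 difference 0.68, limma adjusted p = 0.01). Ly6e fell from 370 to 167 TPM and Ly6a from 43.6 to 13.2 TPM, by 1.13 and 1.60 on the log2 scale (limma adjusted p = 8.35e-05 and 0.000457). Ly6d was at -0.21 (limma adjusted p = 0.395).

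Nos2 was low in every group. It was at 1.36, 1.35 and 1.78 TPM in DMSO replicates 1 to 3, at 2.68, 2.90 and 3.51 in CA, at 2.75, 3.36 and 5.17 in CDCA and at 4.08, 3.67 and 3.10 in DCA. All 9 libraries with an acid were above all 3 DMSO libraries, and the acids overlapped each other. DCA exceeded DMSO by 0.89 (interval 0.50 to 1.27, limma adjusted p = 0.00192), a 2.42-fold higher mean, under all 14 alternatives as well (0.81 to 1.22). CDCA exceeded it by 0.90 (interval 0.52 to 1.28, limma adjusted p = 0.0421), a 2.51-fold higher mean, and this call held without CDCA replicate 1 (0.0283) but not without any other single library of the 6 (0.0538 to 0.147), nor in the reduced fit (0.66, limma adjusted p = 0.143), nor without the filter (0.0945), with median-ratio scaling (0.0507) or when the 6 libraries were fitted alone (0.241). CA was at 0.69 (interval 0.31 to 1.07, limma adjusted p = 0.0998). Of the 26 immune cell markers, some from macrophages and neutrophils that can also express Nos2, 2 reached the filter and were tested. Itgam, of both cell types, rose under DCA, from 0.54 to 1.26 TPM (log2 difference 0.55, limma adjusted p = 0.00867). Cd68, a macrophage marker, was at 2.86 TPM in DMSO and 2.92 in DCA (0.051, limma adjusted p = 0.831), Fcer1g, not tested, was at 0.40 and 0.224 TPM, and Mpo, Elane, S100a8 and Tyrobp were listed at 0. The part of such cells in the Nos2 difference was not tested. At levels this low a TPM value may carry a large counting error that the files do not give.

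Genes that supply or compete for the substrate of Nos2, arginine, and its cofactors moved in both directions under DCA. Of 15 tested besides Nos2, 4 rose and 3 fell (median 0.032). Arg2, an arginase that uses the same substrate, rose from 24.1 to 148 TPM (log2 difference 2.66, limma adjusted p = 0.000418), and Qdpr, which regenerates the cofactor tetrahydrobiopterin, rose by 0.23 (limma adjusted p = 0.00922). Ass1, which remakes arginine, and Gch1, which starts cofactor synthesis, were at -0.13 and 0.048 (limma adjusted p = 0.222 and 0.743). Calm2, which encodes calmodulin, a subunit of the enzyme, fell by 0.25 (limma adjusted p = 0.0163). The list's count of 8 that passed, Nos2 included, fell to between 4 and 5 without the filter or without any 1 of DCA replicates 2 and 3 and DMSO replicates 2 and 3.

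Duox2 was at 1.87, 1.63 and 1.06 TPM in DMSO replicates 1 to 3, at 2.32, 2.74 and 2.83 in CA, at 2.34, 2.22 and 3.04 in CDCA and at 2.49, 2.16 and 2.20 in DCA. As for Nos2, every library with an acid was above every DMSO library, and the acids overlapped. The differences from DMSO were 0.54 for CA (interval 0.21 to 0.86), 0.49 for CDCA (0.17 to 0.82) and 0.39 for DCA (0.07 to 0.72), none of which passed (limma adjusted p = 0.128, 0.237 and 0.0539). The DCA value did pass with a pseudocount of 0.1 (0.59, limma adjusted p = 0.0485) and with plain moderation (0.0340). It was also past the threshold once DMSO replicate 1 was removed (0.49, limma adjusted p = 0.0264). As that library was the highest of DMSO for Duox2, its removal raises the difference by construction and supports no call. Apart from these and the reduced fit, the DCA value was past the threshold under no alternative. Duoxa2, the maturation factor, was at 1.09, 0.478 and 1.05 TPM in DMSO, 1.05, 0.710 and 1.16 in CA, 1.06, 0.864 and 1.78 in CDCA and 1.20, 1.35 and 1.44 in DCA. Its DCA libraries were above its DMSO libraries and the other acids overlapped DMSO. The Duoxa2 difference was 0.33 for DCA (interval -0.075 to 0.74, limma adjusted p = 0.183), 0.25 for CDCA (0.084 without CDCA replicate 3) and 0.086 for CA.

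The oxidase relatives were close to the floor. Duox1, the other dual oxidase, and Nox1, an oxidase of colonic epithelium, were at most 0.309 and 0.372 TPM in any library and were not tested, and Duoxa1, the partner of Duox1, was listed at 0 in all libraries but CA replicate 2, at 0.0851 TPM. Of 5 tested genes besides the members, 0 rose and 1 fell under DCA. That gene was Cyba, the membrane subunit shared by several NADPH oxidases, at 82.5 TPM in DMSO and 42.7 in DCA (log2 difference -0.93, limma adjusted p = 0.000145). Noxo1 and Noxa1, organiser and activator of Nox1, were at -0.46 and 0.068 (limma adjusted p = 0.163 and 0.753), and Rac1, a small GTPase of the complex, at -0.01 (limma adjusted p = 0.929).

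Lcn2 was near the floor in every group. It was listed at 0.283, 0.0805 and 0 TPM in DMSO, at 0, 0.0847 and 0 in CA, at 0.207, 0 and 0 in CDCA and at 0.203, 0 and 0.163 in DCA. It was listed at 0 in 6 of 12 libraries, and no fold is given. Saa1, an acute phase gene often induced alongside Lcn2, was at 0.467 TPM in DMSO replicate 1 and listed at 0 in the other libraries. Of 3 tested genes of the lipocalin and siderophore list, 0 rose and 1 fell under DCA (median -0.06). The gene that fell was Ptgds, at 3.98 TPM in DMSO and 0.379 in DCA (-1.77, limma adjusted p = 0.000595). Slc22a17, a receptor for lipocalin 2, was at 1.87 TPM in DMSO and 1.63 in DCA (-0.06, limma adjusted p = 0.868). Rbp4 was at 0.062 (limma adjusted p = 0.823).

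Genes of cytokine responses and cytokine or pattern receptors made up a further pair of lists. Of 23 tested genes that respond to NF-kB, IL-17 or IL-22 signals, members left out, 6 rose and 4 fell under DCA (median 0.079). Nfkbia, the feedback inhibitor of NF-kB, was at 37.4 TPM in DMSO and 39.5 in DCA (0.079, limma adjusted p = 0.626), and the antimicrobial lectins Reg3b and Reg3g were at 0.0061 and 0.055 (limma adjusted p = 0.991 and 0.851). Nfkbiz, a co-regulator of IL-17 responses, rose by 0.41 (limma adjusted p = 0.0129), while Socs3 and Irf1 were at 0.33 and 0.34 (limma adjusted p = 0.0822 and 0.226). Of 21 receptor genes 12 rose and 2 fell under DCA (median 0.39), where 18.8% of all tested genes rose and 19.2% fell. Il22ra1, the IL-22 receptor chain of epithelia, rose from 5.01 to 10.5 TPM (log2 difference 0.97, limma adjusted p = 0.00154), Tnfrsf1a, a receptor of tumour necrosis factor, by 0.59, and Ltbr, the lymphotoxin beta receptor, by 0.51 (limma adjusted p = 0.000242 and 0.000373). The interferon gamma receptor chains Ifngr1 and Ifngr2 rose by 0.35 and 0.63 (limma adjusted p = 0.00512 and 0.00492). Il17ra was at 0.15 (limma adjusted p = 0.488). Il17rc rose by 0.49 and Il10rb by 0.39 (limma adjusted p = 0.036 and 0.017), though the DCA and DMSO libraries overlapped for Il17rc. Over the 9 lists together, 100 genes that were not members were tested. In limma 28 rose and 22 fell under DCA (57 at an unadjusted p under 0.05), where 18.8% of all tested genes rose and 19.2% fell. Under CA and CDCA 0 passed (16 and 15 at an unadjusted p under 0.05), where 0.577% and 0.594% of all tested genes did. An unadjusted p under 0.05 was reached by 5608, 1763 and 1168 of the 11952 tested genes under DCA, CA and CDCA.

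The acids were compared with each other in 3 pairs. DCA exceeded CDCA for 3 of 7 members, where 12.8% of all tested genes were higher in DCA and 15.0% lower (27.8% in either direction): Pigr by 0.86 (interval 0.58 to 1.14), Ccl25 by 0.98 (0.53 to 1.42) and Muc13 by 0.42 (0.17 to 0.68), with limma adjusted p = 0.00107, 0.00488 and 0.0193. The Muc13 difference lost its call without DCA replicate 1 or 2 or CDCA replicate 1 or 2 (limma adjusted p = 0.0611 to 0.089). DCA exceeded CA for 1 of 7, Pigr, where 5.79% of all tested genes were higher in DCA and 8.94% lower (14.7% in either direction). Ccl25 was at 0.62 in that pair (interval 0.18 to 1.06, limma adjusted p = 0.0609) and passed when the CA and DCA libraries were fitted alone (0.00414). In the reduced fit, which keeps all CA and DCA libraries, it was again 0.62 (limma adjusted p = 0.000569), and 2 of 7 members were higher with DCA, where 9.09% of all tested genes were higher and 14.7% lower (23.8% in either direction). CDCA and CA, which differ by a hydroxyl group, differed for 0 of 7 members in limma (0.00837% of all tested genes were higher in CDCA and 0.0251% lower, 0.0335% in either direction). An unadjusted limma p under 0.05 was reached there by 1 of 7 members, and by 861 of the 11952 tested genes. That member was Muc13, at -0.32 (interval -0.58 to -0.066, limma adjusted p = 0.598). In the reduced fit Muc13, Lypd8 and Ccl25 were lower with CDCA than with CA, at -0.46, -0.63 and -0.61 (limma adjusted p = 0.0269, 0.0124 and 0.00875), where 0.807% of all tested genes were higher and 2.88% lower in that fit (3.69% in either direction). DCA there exceeded CDCA for 4 of 7 members, where 15.2% of all tested genes were higher and 22.1% lower (37.3% in either direction), with Lypd8 at 0.80 (limma adjusted p = 0.000201) against 0.34 with all libraries. These counts and p-values of the reduced fit support no call. Libraries did not overlap, with DCA higher, for 3 of 7 members against CDCA (48.4% of all tested genes did not overlap in either direction) and for 3 of 7 against CA (45.6%), and for 0 of 7 between CDCA and CA (10.7%).

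For the enzymes no pair of acids passed. Nos2 differed by 0.21 between CDCA and CA (interval -0.17 to 0.59), by 0.20 between DCA and CA (-0.19 to 0.58) and by -0.018 between DCA and CDCA (-0.40 to 0.36). Duox2 differed by -0.044 (-0.37 to 0.28), -0.14 (-0.47 to 0.18) and -0.099 (-0.42 to 0.22) in the same pairs. The ends of these intervals farthest from 0 were 0.59 for Nos2 and -0.47 for Duox2, and a p above the threshold does not show that the acids acted alike. From lowest to highest mean the order was DMSO, CDCA, CA, DCA for Pigr, Ccl25 and Lypd8, CDCA, DMSO, CA, DCA for Muc13 and DMSO, CA, DCA, CDCA for Nos2. Duox2 had the order DMSO, DCA, CDCA, CA, and Duoxa2 the order DMSO, CA, CDCA, DCA. Of the adjacent groups in these 7 orders, only DCA and CA for Pigr differed past the threshold with all 12 libraries.

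**Figure D3:**
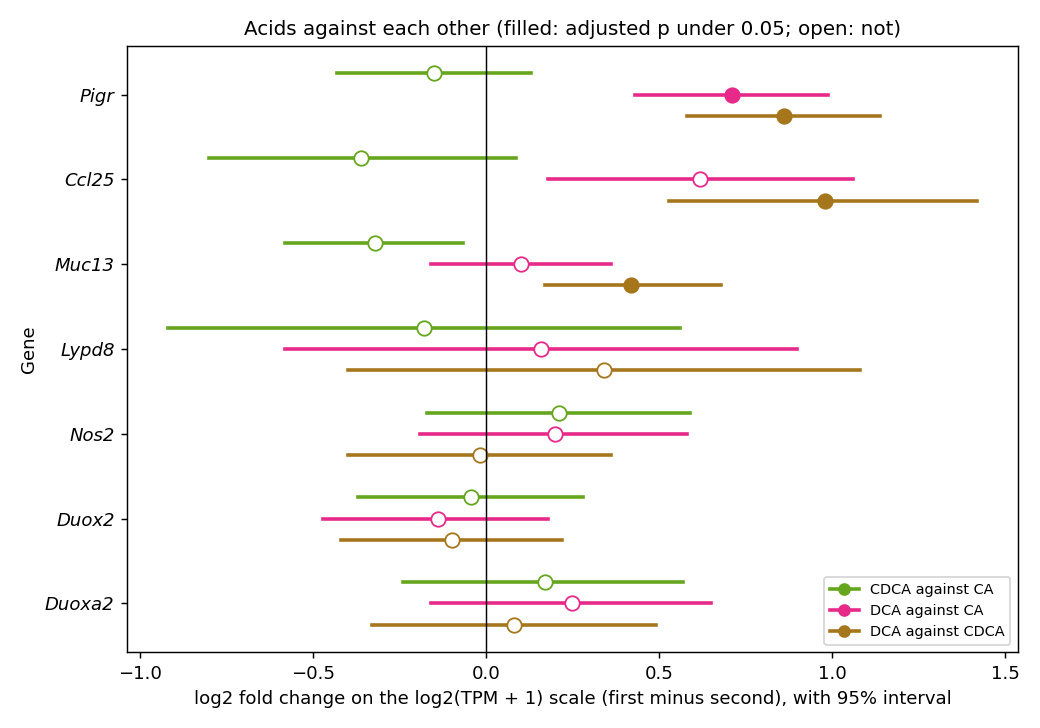
Log2 fold change on the log2(TPM + 1) scale (horizontal axis, first acid minus second) with its 95% interval for 7 genes in the 3 pairs of acids (n = 3 per group). Filled points passed at a limma adjusted p under 0.05. Pigr and Ccl25 are higher with DCA than with CDCA, by 0.86 and 0.98, and the intervals of Nos2, Duox2 and Duoxa2 span 0 in every pair.

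Under DCA most markers of absorptive enterocytes rose, as Pigr, Ccl25 and Muc13 did, and most markers of stem cells fell. In CDCA the enterocyte sum had a lower mean than in DMSO (3507 against 3859 TPM). The means of Pigr, Ccl25 and Lypd8 were higher in CDCA than in DMSO, and that of Muc13 was lower. None of these differences passed, and the higher means rested largely on CDCA replicate 3. Without it the log2 differences were 0.088, 0.0061 and 0.049 for Pigr, Ccl25 and Lypd8, and -0.18 for Muc13. The 15 enterocyte markers summed to 2769 to 4574 TPM in DMSO, 4261 to 6557 in CA, 2903 to 4593 in CDCA and 7645 to 9973 in DCA, and 14 of 15 rose under DCA (median 1.37), with Fabp1, a fatty acid binding protein, at 1.86 and Sis, sucrase-isomaltase, at 1.49. The 13 stem cell markers summed to 584 to 1174 TPM in DMSO, 441 to 590.3 in CA, 396 to 893 in CDCA and 196 to 224 in DCA, and 12 of 13 fell under DCA (median -1.61), with Lgr5 at -1.17. Within DMSO, replicate 1 had the highest enterocyte sum (4574 TPM) and the lowest stem cell sum (584 TPM), replicate 2 had the lowest enterocyte sum (2769 TPM) and the lowest Pigr, Ccl25, Muc13 and Lypd8, and replicate 3 had the highest stem cell sum (1174 TPM). Within CDCA, replicate 3 had the highest enterocyte sum (4593 TPM), the lowest stem cell sum (396 TPM) and the highest of the same 4 genes. Within CA, replicate 1 had the highest enterocyte sum (6557 TPM) and the highest Pigr, Muc13 and Lypd8, while Ccl25 was highest in replicate 3. Within DCA the orders differed, with the highest enterocyte sum (9973 TPM) and the highest Lypd8 in replicate 2 and the highest Pigr, Ccl25 and Muc13 in replicate 1. Goblet cell markers fell in 7 of 12 cases under DCA (median -0.37) and Paneth cell markers in 8 of 12 (median -0.67). Mitochondrial RNA took 17.2 ± 2.74% of TPM in DMSO, 14.0 ± 0.389% in CA, 15.9 ± 2.02% in CDCA and 11.8 ± 0.814% in DCA (SD, n = 3), highest in DMSO replicate 2 at 20.1%. The part of cell composition in the members' differences was not tested. After removal of mitochondrial and rRNA rows, Pigr, Ccl25 and Nos2 rose under DCA by 1.03, 1.14 and 0.86.

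**Figure D4:**
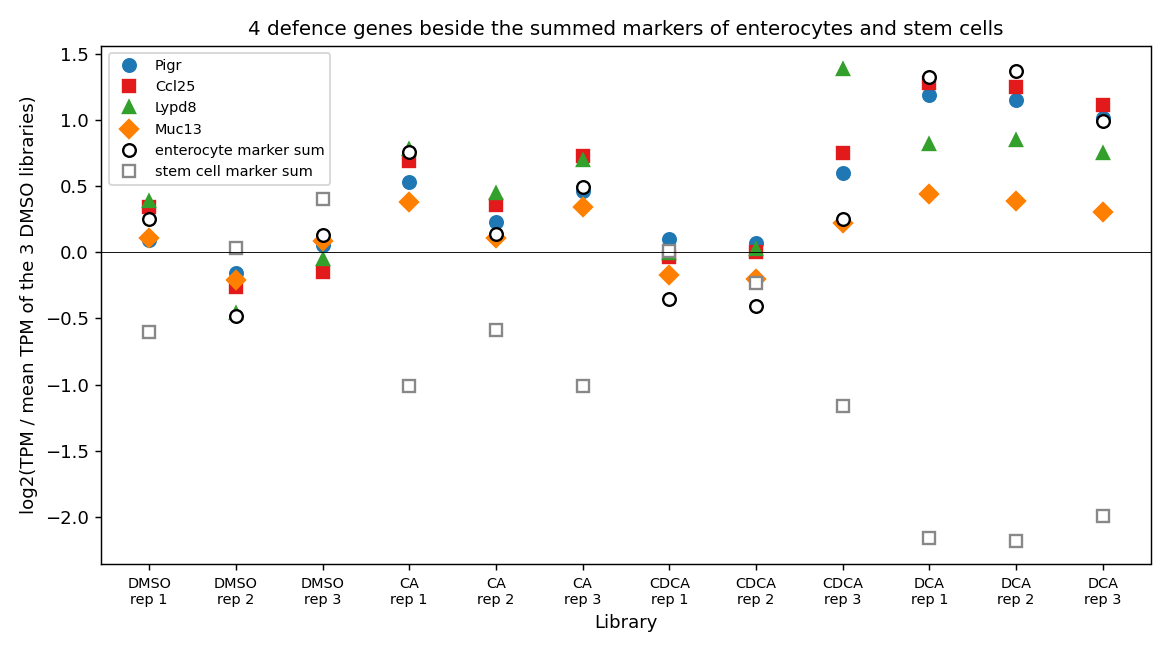
Log2 of TPM over the mean TPM of the 3 DMSO libraries (vertical axis) in each of 12 libraries (horizontal axis) for Pigr, Ccl25, Lypd8 and Muc13 (filled) and for the summed markers of enterocytes and stem cells (open). Pigr and Ccl25 lie near the enterocyte sum in DCA, at 1.01 to 1.28 beside 0.99 to 1.37, and Lypd8 in CDCA replicate 3 lies far above it, at 1.38 beside 0.25.

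Likeness was measured as the root mean square difference between log2(TPM + 1) profiles over the 12 libraries, each profile less its own mean. The libraries share 4 treatments, so groups of genes with the same response score as alike. Among pairs of members, Pigr and Ccl25 were closest (0.14), and Duox2 and Ccl25 farthest apart (0.45). Duox2 and Duoxa2, oxidase and partner, were at 0.27, the same as Nos2 and Duox2. By the same measure Duox2 lay 0.25 from its own mean, and Nos2 lay 0.41 from its own. An unchanging gene would thus lie nearer to Duox2 than Duoxa2 did. Companions were sought among the tested genes with a plain symbol, which leaves out predicted genes, clone names, identifiers and pseudogenes. Of the genes searched, those most like Pigr were Plekha8 (0.077), Pdzd3 (0.082) and Dhrs1 (0.086). Those most like Ccl25 were Shpk (0.061), Cgref1 (0.079) and Acsl5 (0.082). Muc13 was most like Abcb1a (0.055), a drug efflux pump, Cldn15 (0.055), a claudin of small-intestinal tight junctions, and Ckmt1 (0.061). The low genes had less close companions. Nos2 was nearest to Ang (0.16), Gcnt2 (0.16) and Slc9a4 (0.17), and Duox2 to Atf5, Tstd1 and Slc7a3 (0.13 each).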

How the data were processed

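Per library, the authors deposited a table of gene symbols with TPM values (32587 rows, summing to 889156 to 936841), and that the unit is TPM was read from these sums and from values that are not whole. The submitters' processing notes name Salmon 1.8.0 and GRCm39. The sources used here do not give the annotation, the strand setting or the way transcripts were summed. Genes reaching 1 TPM in 3 or more libraries (11952) were tested as log2(TPM + 1) in limma 3.58.1 (R 4.3.3), with 1 mean for each of 4 groups, all 12 libraries sharing the spread, trend and robust moderation, and two-sided p-values adjusted by Benjamini-Hochberg over all tested genes of each of 6 comparisons, at 0.05. The script was first tested on simulated data. Intervals are 95% and unadjusted. The 8 members and the 19 gene lists were chosen with earlier results of these data known, 298 of 299 list genes were found, and lists are given as counts and medians only. All members are named, and of each list the 4 most abundant genes and a set of partners could be named, whatever their change, of which 1 is not reported here. Alternatives were no filter, scaling by median ratios, 0.1 as pseudocount, the replicate number as a block, fitting only the 6 libraries compared, plain moderation (no trend, not robust), removal of 13 mitochondrial and 2 rRNA rows, the reduced fit without CDCA replicate 3 and DMSO replicate 1, and removal of each library in turn.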

Additional observations from a re-analysis of the deposited data

How the results depend on the processing

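Of the 42 values of 7 members in 6 comparisons, 20 kept direction and side of the threshold under every alternative, as did 6 of the 9 that passed. The count of members that passed in CDCA against DMSO (1) was 0 with no filter, median-ratio scaling, the replicate block, only the 6 libraries compared, or the reduced fit (without CDCA replicate 3 and DMSO replicate 1). In the reduced fit it was 5 in place of 0 in CA against DMSO, 3 in place of 0 in CDCA against CA and 2 in place of 1 in DCA against CA, where the share of all tested genes went from 0.577% to 8.10%, from 0.0335% to 3.69% and from 14.7% to 23.8%. The last count was also 2 with only the 6 libraries. Counts from the reduced fit support no call. The F test count (5) was 3 with no filter or after removal of mitochondrial and rRNA rows. With single libraries left out these counts were 0 to 1 in CDCA against DMSO, 3 to 6 in DCA against DMSO, 2 to 4 in DCA against CDCA and 3 to 6 for the F test.

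Directions that reversed belonged to values that did not pass. Nos2 in DCA against CDCA (-0.018) was 0.022 with median-ratio scaling and 0.19 in the reduced fit, where Duox2 in that pair (-0.099) was 0.00059 and Duoxa2 in CDCA against CA (0.17) was -0.002. With single libraries left out, DCA against CDCA ran from -0.17 to 0.19 for Nos2 (above 0 without CDCA replicate 3 at 0.19 and DCA replicate 3 at 0.066), from -0.16 to 0.00059 for Duox2 (without CDCA replicate 3) and from -0.038 (without CDCA replicate 2) to 0.25 for Duoxa2 (0.082). CDCA against CA ran from -0.14 to 0.019 (without CDCA replicate 2) for Duox2 (-0.044), from -0.002 (without CDCA replicate 3) to 0.29 for Duoxa2 and from -0.63 to 0.062 for Lypd8 (-0.18, above 0 without CDCA replicate 1 or 2). CDCA against DMSO ran from -0.18 to 0.033 for Muc13 (-0.043, above 0 when CDCA replicate 1, CDCA replicate 2, DMSO replicate 1 or DMSO replicate 3 was removed), and CA against DMSO from -0.076 (without DMSO replicate 2) to 0.19 for Duoxa2 (0.086). The cause was not tested.

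Over all genes, 69 passed in CA against DMSO (26 to 964 under the alternatives, 2 to 190 with a library left out), 71 in CDCA against DMSO (22 to 87, 40 to 85), 4545 in DCA against DMSO (4003 to 5411, 3421 to 4890), 4 in CDCA against CA (2 to 439, 3 to 34), 1761 in DCA against CA (1178 to 3414, 573 to 1107) and 3322 in DCA against CDCA (2910 to 4439, 2022 to 3942). The share of higher genes among these was 49.4% in DCA against DMSO and 35.4% after removal of mitochondrial and rRNA rows, which moved the median of all genes from -0.021 to -0.11 there, and 46.1% and 34.0% in DCA against CDCA. With median-ratio scaling it was 70.1% in place of 85.9% in CDCA against DMSO and 50.3% in place of 39.3% in DCA against CA (29.3% without those rows). Replicate numbers did not pair the libraries: deviations of same-numbered libraries correlated at -0.38 to 0.11, over 0.1 in 2 of 18 pairs. The replicate block took the count of genes in CDCA against DMSO to 45, and the Nos2 call there to an adjusted p of 0.0685.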
